A study of Mus musculus with 28 samples.

Results

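The comparison asked what loss of the last Hnf4g allele changes in medullary thymic epithelium that already lacks Hnf4a. It used 7 of the 28 libraries of the series. There were 4 libraries of double-mutant mTEClo (Hnf4a fl/fl, Hnf4g -/-) and 3 libraries of Hnf4a-removed mTEClo (Hnf4a fl/fl, Hnf4g +/-). All mice were C57BL/6 and carried Foxn1-Cre (+/-), which drives recombination in thymic epithelium. Both groups therefore shared the removal of Hnf4a in these cells, and the Hnf4a-removed cells kept 1 intact Hnf4g allele and not a full pair. The Hnf4g allele was -/- or +/- in the whole animal and not in thymic epithelium alone. mTEClo are the medullary thymic epithelial cells (mTECs) with little MHC class II, and the labels call the sorted population post-Aire. Further groups were used only to set these results beside others. They were mTEClo of Hnf4g-removed (Hnf4a fl/+, Hnf4g -/-, n = 3) and control mice (Hnf4a fl/+, Hnf4g +/-, n = 4), mTEChi of double-mutant (n = 4) and control mice (n = 4), and a wild-type entero-hepato gate (n = 3) with the mTECs outside it (n = 3). The sources used here give neither mouse ages nor the deleted parts of the 2 genes.

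HNF4A and HNF4G are closely related nuclear receptors that bind the same DNA motif and drive genes of enterocytes and hepatocytes. Medullary thymic epithelial cells express genes of many peripheral tissues, which exposes developing T cells to those self proteins. Some post-Aire mTECs, the mimetic cells, take on programmes of one peripheral cell type such as tuft, microfold or gut epithelium. Lypd8, Mep1a and Ceacam20, used here as markers of the entero-hepato type, encode a bacteria-binding surface protein of the colon, a brush border metalloprotease and an adhesion protein of intestinal microvilli.

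Each library was made from 1000 sorted cells. Total counts were 6442242 to 7599304 over the 7 libraries, and 27045 to 28898 genes had at least 1 read. Levels of single genes are CPM, each gene's count scaled to the size of its library, on TMM-scaled libraries. Summed levels of lists, and the level of Gm10800, are CPM of the plain library totals, without TMM. Genes were tested with edgeR's quasi-likelihood test, and those with a Benjamini-Hochberg adjusted p under 0.05 were called. The epithelial genes Epcam and Krt8 were at 1096 ± 50.8 and 2123 ± 178 CPM in double-mutant mTEClo (SD, n = 4), against 1245 ± 131 and 2173 ± 110 CPM in Hnf4a-removed mTEClo (SD, n = 3). Krt14, another marker of medullary epithelium, was higher in double-mutant libraries without overlap, though not called. It was at 168, 180, 171 and 179 CPM in double-mutant libraries, against 90.8, 114 and 126 CPM in Hnf4a-removed libraries. Krt5 and Cd80 overlapped between the groups, and Aire and H2-Aa are given further below. On the first principal component of the 14 mTEClo libraries, which held 16.9% of the variance, the double-mutant libraries had scores of -43.2 to -26.9 and the Hnf4a-removed libraries -11.7, 19 and 36.4. On this component Hnf4a-removed replicate 1, at -11.7, was the one nearest to the double mutants, and replicate 3 the one farthest from them. The component did not order the genotypes alone, as Hnf4g-removed replicate 1 was at -63.3 and control replicate 1 at -6.07. On the second component (9.06% of the variance) Hnf4a-removed replicate 1 was the farthest, at -52.3 beside 5.0 to 33.3 in double-mutant libraries.

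The targeted genes were low in every library and did not separate the groups. Hnf4g (chromosome 3, 3508030 to 3658052) had 33, 22, 36 and 57 reads in double-mutant libraries, against 63, 53 and 39 reads in Hnf4a-removed libraries. That is 5.25 ± 2.25 CPM (SD, n = 4) in double-mutant mTEClo and 7.83 ± 1.65 CPM (SD, n = 3) in Hnf4a-removed mTEClo. The groups overlapped, with a log2 fold change of -0.58 (SE 0.32) and an adjusted p of 0.548 by edgeR. Hnf4a (chromosome 2, 163506808 to 163572910) had 22, 21, 17 and 29 reads in double-mutant libraries, against 20, 32 and 16 reads in Hnf4a-removed libraries, with a log2 fold change of -0.11 (SE 0.44, adjusted p = 0.961). Reads from parts of a gene outside a deletion are still counted, and reads of the antisense gene Hnf4aos cannot be told from those of Hnf4a, and the labelled genotypes therefore have no check in these counts. Of the genes tested within 2 Mb of Hnf4g, 0 of 3 were called, and of those within 2 Mb of Hnf4a, 0 of 55. Serinc3, close to Hnf4a, was at 320 CPM in double-mutant and 288 CPM in Hnf4a-removed mTEClo (log2 fold change 0.15, adjusted p = 0.603).

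A small set of genes was lower without the last Hnf4g allele, with gut and microfold genes among the leading ones. Of 18775 genes tested, edgeR called 49 lower (0.261%) and 6 higher (0.0320%) in double-mutant mTEClo, 55 in all (0.293%). At an unadjusted p under 0.05 there were 1121 lower and 936 higher genes, where uniform p-values would give 939 in both directions together. The median log2 fold change of all genes was 0.01. Of the 49 lower genes, 40 had a log2 fold change under -1 and 19 under -2. In all 49 every double-mutant library lay below every Hnf4a-removed library, which was so for 5.66% of all genes tested. In all 6 higher genes every double-mutant library lay above, which was so for 5.43%. The genes were called on these same libraries, so this separation follows largely from the selection and adds no support. The labels number the thymi but do not say whether each stands for another animal, and p-values thus reflect library-to-library spread that may be technical. In RNA from sorted populations, fewer cells of a type and less RNA per cell cannot be told apart.

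**Figure D1:**
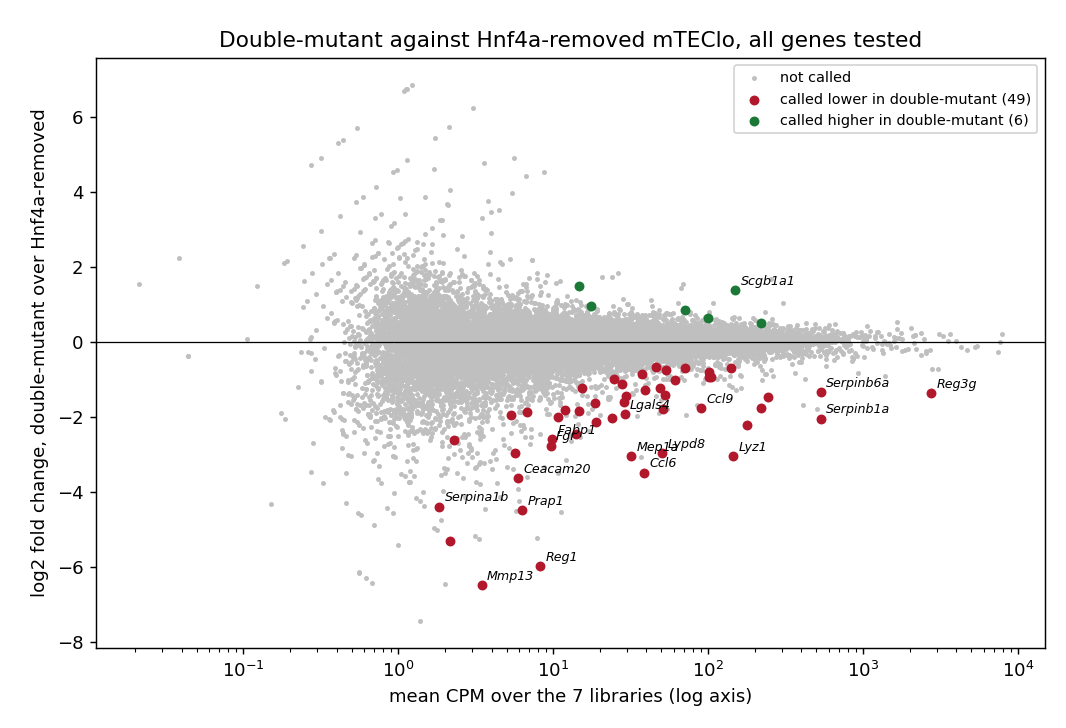
Log2 fold change of double-mutant over Hnf4a-removed mTEClo (vertical axis) against the mean level over the 7 libraries in CPM (horizontal log axis) for the 18775 genes tested, each point a gene. The 49 genes called lower run from Reg3g, above 1000 CPM, down to genes of a few CPM, and the 6 called higher lie at log2 fold changes of 0.52 to 1.5.

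The calls rested on few libraries. Without Hnf4a-removed replicate 3, 7 of the 49 lower genes and 0 of the 6 higher genes were still called. These 7, Ccl6, Ccl9, Fabp1, Fgr, Lgals4, Lyz1 and Serpinb6a, were the ones called whichever of the 7 libraries was left out. The number called lower was 18 without double-mutant replicate 3, 20 without replicate 1 and 31 without replicate 4, and 33 to 51 without each of the others, and over all leave-one-out fits the number called higher was 0 to 5. Mep1a, Ceacam20, Lypd8, Calml4, Ddc, Mocs1 and Serpinb1a kept their call in all leave-one-out fits but the one without Hnf4a-removed replicate 3. DESeq2 called all 55 genes and limma voom 28 of them.

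Microfold genes made the largest share of calls in any list. Microfold (M) cells are the epithelial cells over gut lymphoid follicles that take up particles and draw in immune cells. Of the 14 listed genes, all measured, 6 fell, 0 rose, and the median log2 fold change was -0.95, beside 0.01 over all genes. The chemokine gene Ccl6 (chromosome 11, 83587882 to 83593087) was at 9.45, 5.6, 9.0 and 4.61 CPM in double-mutant libraries, against 83, 60.9 and 98.4 CPM in Hnf4a-removed libraries. Its groups stood well apart, and the log2 fold change was -3.48 (SE 0.45, adjusted p = 0.00379, edgeR). Its neighbour Ccl9, 9246 bases away and also a chemokine gene, was at 36.4, 49.1, 39.7 and 53.1 CPM in double-mutant libraries, against 148, 138 and 168 CPM in Hnf4a-removed libraries. It fell by 1.76 on the log2 scale (SE 0.23, adjusted p = 0.00379). Serpinb1a, a protease inhibitor gene, was at 292, 198, 142 and 279 CPM in double-mutant libraries, against 706, 825 and 1282 CPM in Hnf4a-removed libraries (log2 fold change -2.04, SE 0.31, adjusted p = 0.0119).

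Ccl20, whose product attracts CCR6-bearing lymphocytes, was at 60.0, 61.5, 32.3 and 126 CPM in double-mutant libraries, against 282, 304 and 377 CPM in Hnf4a-removed libraries (log2 fold change -2.20, SE 0.37, adjusted p = 0.0243). Pglyrp1, a peptidoglycan-binding antibacterial protein gene, averaged 109 ± 38.1 CPM in double-mutant and 365 ± 181 CPM in Hnf4a-removed mTEClo, and Tnfaip2, which in M cells helps form membrane protrusions, 31.0 ± 12.3 CPM in double-mutant and 82.1 ± 21.2 CPM in Hnf4a-removed mTEClo. Both fell, by 1.75 and 1.40 on the log2 scale. Other genes that define the type were not called. The M cell transcription factor gene Spib was at 813 CPM in double-mutant and 986 CPM in Hnf4a-removed mTEClo (log2 fold change -0.28, adjusted p = 0.404). The transcription factor gene Sox8 was at 22.2 CPM in double-mutant and 34.7 CPM in Hnf4a-removed mTEClo, without overlap (log2 fold change -0.64, adjusted p = 0.0795). Gp2, the M cell receptor for bacterial fimbriae, was at 1840 CPM in double-mutant and 2108 CPM in Hnf4a-removed mTEClo, with overlapping libraries (log2 fold change -0.20, adjusted p = 0.771). The summed level of the list was 5354 to 5727 CPM in double-mutant and 6993 to 9432 CPM in Hnf4a-removed libraries, without overlap.

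Fgr, a Src-family kinase gene outside the list, had the smallest p of all genes. It was at 3.29, 3.39, 2.38 and 1.93 CPM in double-mutant libraries, against 19.2, 12.7 and 24.6 CPM in Hnf4a-removed libraries (log2 fold change -2.77, SE 0.30, adjusted p = 0.0020). Serpinb6a, an intracellular protease inhibitor gene on chromosome 13, was at 326, 352, 303 and 311 CPM in double-mutant libraries, against 710, 693 and 1038 CPM in Hnf4a-removed libraries. It fell by 1.33 on the log2 scale (SE 0.16, adjusted p = 0.00346), and 1 gene model that lies within it was called lower too and cannot be counted apart from it without strand.

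Several of these genes, Fgr, Ccl6 and Ccl9 among them, are also expressed by myeloid cells, which CD45 depletion and sorting should remove. Of the 17 genes of the myeloid and dendritic list, 13 were measured and 0 were called. Of these 13, 9 were negative and 4 positive, with a median log2 fold change of -0.82, beside 0.01 over all genes. In 3 of the 13, Fcer1g and Batf3 among them, every double-mutant library lay below every Hnf4a-removed library, beside 5.66% of all genes. In 1, Cd68, every double-mutant library lay above, beside 5.43% of all genes. The summed level of the list was 329 to 654 CPM in double-mutant and 660 to 1056 CPM in Hnf4a-removed libraries, without overlap. The largest part of that sum was Lyz2, at 297 CPM in double-mutant and 588 CPM in Hnf4a-removed mTEClo, a near copy of Lyz1. Whether reads were shared between them was not tested. None of the defining markers was at 0 in both groups: Ptprc (CD45) was at 38.9 CPM in double-mutant and 30.1 CPM in Hnf4a-removed mTEClo, Itgam at 3.78 against 4.38 CPM, Adgre1 at 12.5 against 4.12 CPM, and Cd68 at 16.5 against 11.6 CPM. The other 4 listed genes had too few reads to be tested. The part of myeloid RNA in these results was not tested.

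**Figure D2:**
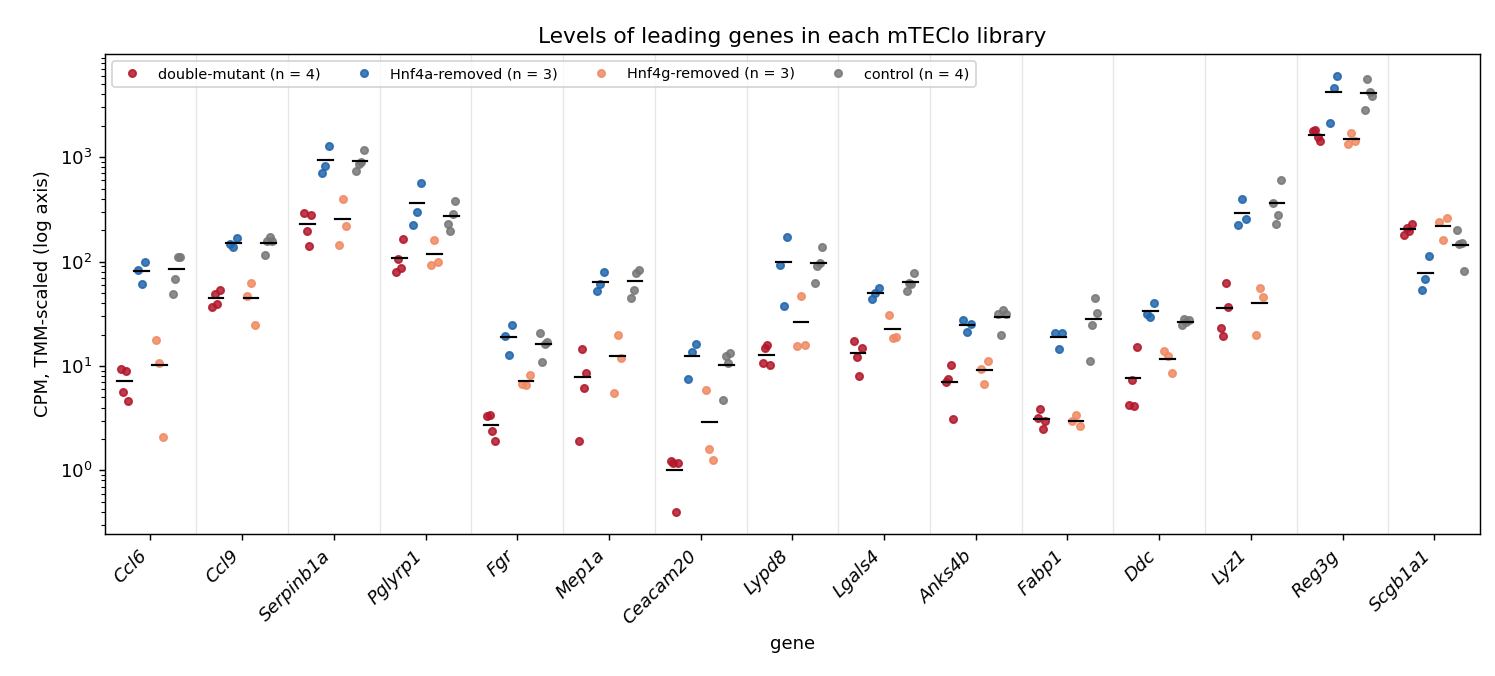
Level in each mTEClo library, in CPM on a log axis, of 15 genes, with double-mutant, Hnf4a-removed, Hnf4g-removed and control libraries from left to right and black bars at the group means. For the 14 genes called lower, all double-mutant points lie under all Hnf4a-removed points, and for Scgb1a1 they lie above.

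The promoters of called genes were searched for the HNF4-type motif CAAAGNNCA and for its exact form CAAAGTCCA, on both strands, in windows from 250 bases before to 50 bases after the start of the gene (RefSeq, GRCm38.p6). The exact form is contained in the other. Of the 49 lower genes, 44 had an entry, and 6 of these (13.6%) held CAAAGNNCA, beside 6.52% of the 13381 genes tested that had an entry. Of the wild-type entero-hepato signature, the genes higher in that gate by a log2 fold change over 1, which holds 45 of the 49 lower genes, 151 of 1513 with an entry (9.98%) held it, as did 1 of the 4 higher genes with an entry. CAAAGTCCA was in 2 of the 44 genes (4.55%), Trim31 and Muc13, beside 1.52% of the signature genes, 0.516% of the genes tested and 0 of the 4 higher genes. The promoters of the neighbours Ccl6 and Ccl9, of the brush border gene Anks4b, of Trim31 and of Muc13 are shown, each on the strand of its gene, with the matched bases in capitals; the last gene with a match was H2-M2. All 5 matches read on the strand opposite to the gene, and they began 88, 43, 59, 130 and 186 bases before the start in the order given. A match is a description of these letters and not a binding site.
Ccl6 (chr11:83593038-83593337, minus strand): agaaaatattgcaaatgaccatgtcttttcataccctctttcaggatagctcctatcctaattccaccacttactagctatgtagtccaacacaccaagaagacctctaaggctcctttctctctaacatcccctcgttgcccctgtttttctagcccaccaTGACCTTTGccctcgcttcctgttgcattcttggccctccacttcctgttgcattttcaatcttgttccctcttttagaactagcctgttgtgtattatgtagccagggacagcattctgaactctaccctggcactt
Ccl9 (chr11:83578587-83578886, minus strand): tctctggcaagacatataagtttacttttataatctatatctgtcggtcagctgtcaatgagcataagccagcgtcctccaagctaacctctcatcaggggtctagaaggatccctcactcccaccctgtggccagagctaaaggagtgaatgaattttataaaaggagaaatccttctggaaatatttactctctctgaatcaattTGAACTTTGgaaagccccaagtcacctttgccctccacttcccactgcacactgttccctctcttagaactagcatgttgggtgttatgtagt
Anks4b (chr7:120173608-120173907, plus strand): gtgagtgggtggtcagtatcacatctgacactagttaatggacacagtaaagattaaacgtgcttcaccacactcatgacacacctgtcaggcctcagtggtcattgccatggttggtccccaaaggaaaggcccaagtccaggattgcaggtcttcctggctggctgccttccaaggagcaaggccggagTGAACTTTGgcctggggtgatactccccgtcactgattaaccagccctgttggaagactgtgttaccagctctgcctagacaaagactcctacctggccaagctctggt
Trim31 (chr17:36897880-36898179, plus strand): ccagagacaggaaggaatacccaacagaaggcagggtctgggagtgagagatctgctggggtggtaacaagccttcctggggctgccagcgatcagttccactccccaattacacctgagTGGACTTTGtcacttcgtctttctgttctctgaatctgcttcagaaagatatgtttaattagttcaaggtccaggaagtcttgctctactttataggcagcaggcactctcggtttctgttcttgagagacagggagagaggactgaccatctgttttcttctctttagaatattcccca
Muc13 (chr16:33794239-33794538, plus strand, 1 of its 2 listed starts): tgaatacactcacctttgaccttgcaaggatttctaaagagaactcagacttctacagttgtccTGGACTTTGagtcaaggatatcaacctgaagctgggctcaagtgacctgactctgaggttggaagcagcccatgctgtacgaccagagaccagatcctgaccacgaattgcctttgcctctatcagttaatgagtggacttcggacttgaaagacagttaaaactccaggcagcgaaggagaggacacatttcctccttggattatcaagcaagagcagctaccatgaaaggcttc

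Some genes of the gut epithelial surface fell, the markers Lypd8 and Ceacam20 among them. Of 22 listed gut surface genes, 21 were measured, 4 fell and 0 rose, and the median log2 fold change was -1.24. Lgals4, a galectin of the intestinal brush border, was at 17.5, 12.2, 7.94 and 15 CPM in double-mutant libraries, against 43.5, 49.5 and 56.4 CPM in Hnf4a-removed libraries. It fell by 1.92 on the log2 scale (SE 0.24, adjusted p = 0.00346). Ceacam20 was at 1.23, 1.18, 0.397 and 1.19 CPM in double-mutant libraries, or 28 reads in all, against 7.56, 13.7 and 16.3 CPM in Hnf4a-removed libraries, or 246 reads (log2 fold change -3.63, SE 0.56, adjusted p = 0.0133). Lypd8 was at 10.7, 14.7, 15.8 and 10.3 CPM in double-mutant libraries, against 93, 37.5 and 170 CPM in Hnf4a-removed libraries. The Hnf4a-removed libraries of Lypd8 differed widely among themselves and all lay above the double mutants (log2 fold change -2.96, SE 0.46, adjusted p = 0.0133). Muc13, a transmembrane mucin gene, averaged 15.2 ± 5.46 CPM in double-mutant and 46.2 ± 17.7 CPM in Hnf4a-removed mTEClo (log2 fold change -1.61, SE 0.32, adjusted p = 0.0459).

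Not called in that list were Cdh17, an intestinal cadherin gene, at 32.3 CPM in double-mutant and 62.1 CPM in Hnf4a-removed mTEClo (log2 fold change -0.94, adjusted p = 0.157), and the gut butyrophilin-like genes Btnl1, Btnl4 and Btnl6, with log2 fold changes of -1.93, -2.03 and -1.99 and adjusted p of 0.160, 0.325 and 0.157. Reads of these near copies can be split uncertainly. In 11 of the 21 measured genes the double-mutant libraries all lay below the Hnf4a-removed ones, beside 5.66% of all genes tested. In 1 they all lay above, beside 5.43%. The summed level of the list was 1038 to 1106 CPM in double-mutant and 1193 to 1470 CPM in Hnf4a-removed libraries.

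Of 20 measured genes for the structure of the brush border, the microvillus layer of enterocytes, 2 fell and 0 rose, with a median log2 fold change of -0.45. Both encode parts of the complex that joins microvillus tips. Anks4b was at 6.99, 7.52, 10.2 and 3.12 CPM in double-mutant libraries, against 27.7, 21.3 and 25.5 CPM in Hnf4a-removed libraries (log2 fold change -1.83, SE 0.30, adjusted p = 0.0186). Calml4 was at 67.5, 87.0, 74.1 and 77.3 CPM in double-mutant libraries, against 128, 121 and 151 CPM in Hnf4a-removed libraries (log2 fold change -0.80, SE 0.12, adjusted p = 0.0119). Other parts of that complex missed the threshold without overlap of the libraries. Ush1c was at 3.16 CPM in double-mutant and 10.3 CPM in Hnf4a-removed mTEClo (log2 fold change -1.69, adjusted p = 0.0982), and Cdhr5 at 174 against 250 CPM (log2 fold change -0.52, adjusted p = 0.115). The actin-bundling gene Vil1 was at 33.4 against 63.8 CPM, also without overlap (log2 fold change -0.93, adjusted p = 0.071).

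Among 16 measured brush border enzyme genes 1 fell, Mep1a, and 0 rose, with a median log2 fold change of -0.47. Mep1a (chromosome 17, 43474324 to 43502812) was at 1.92, 14.6, 6.22 and 8.62 CPM in double-mutant libraries, against 52.8, 61.2 and 78.9 CPM in Hnf4a-removed libraries. It fell by 3.04 on the log2 scale (SE 0.45, adjusted p = 0.0113). Mep1b, which encodes the partner subunit, was at 3.01 ± 2.26 CPM in double-mutant and 10.1 ± 7.63 CPM in Hnf4a-removed mTEClo, with overlapping libraries (log2 fold change -1.73, adjusted p = 0.347). Ddc, an aromatic amino acid decarboxylase gene of gut and kidney outside the lists, was at 4.25, 7.37, 4.10 and 15.2 CPM in double-mutant libraries, against 31.4, 29.5 and 39.9 CPM in Hnf4a-removed libraries (log2 fold change -2.13, SE 0.34, adjusted p = 0.0161). Krt20, a keratin gene of differentiated gut epithelium, averaged 24.9 ± 11.3 CPM in double-mutant and 86.7 ± 25.5 CPM in Hnf4a-removed mTEClo (log2 fold change -1.80, SE 0.35), and Tmprss2, a surface protease gene, 73.7 ± 13.2 CPM in double-mutant and 139 ± 21.7 CPM in Hnf4a-removed mTEClo (log2 fold change -0.92, SE 0.16).

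Secreted gut genes had the lowest list median, -1.28 over 22 measured genes, of which 4 fell and 0 rose. Lyz1, the lysozyme of Paneth cells, was at 23.0, 19.3, 63.0 and 37.0 CPM in double-mutant libraries, against 223, 397 and 258 CPM in Hnf4a-removed libraries (log2 fold change -3.04, SE 0.41, adjusted p = 0.00603). Reg3g, an antibacterial lectin gene and the most abundant of all genes called lower, was at 1766, 1841, 1550 and 1426 CPM in double-mutant libraries, against 2143, 4591 and 6023 CPM in Hnf4a-removed libraries. Hnf4a-removed replicate 1 lay close to the double mutants (log2 fold change -1.37, SE 0.26, adjusted p = 0.0391). Reg1, of the same family and 37602 bases away, had 2, 3, 3 and 0 reads in double-mutant libraries, against 292, 47 and 35 reads in Hnf4a-removed libraries (log2 fold change -5.98, SE 1.15, adjusted p = 0.0405). Most of the Hnf4a-removed reads of Reg1 came from replicate 1. Trim31, a ubiquitin ligase gene of gut epithelium, averaged 1.45 ± 1.05 CPM in double-mutant and 11.3 ± 2.09 CPM in Hnf4a-removed mTEClo (log2 fold change -2.95, SE 0.51). Reads of the Reg genes and of Lyz1 with Lyz2 may be split uncertainly between near copies. Prap1, a lipid-binding secreted protein gene of the gut outside the list, had 6, 0, 3 and 8 reads in double-mutant libraries, against 76, 69 and 125 reads in Hnf4a-removed libraries (log2 fold change -4.48, SE 0.75, adjusted p = 0.0223).

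Of 26 measured lipid handling genes 2 fell and 0 rose, with a median log2 fold change of -0.28. Fabp1, the fatty acid binding protein of liver and proximal gut, was at 3.15, 3.83, 2.51 and 2.97 CPM in double-mutant libraries, against 20.9, 14.6 and 20.9 CPM in Hnf4a-removed libraries. The double-mutant libraries lay close together and far under the others (log2 fold change -2.59, SE 0.36, adjusted p = 0.00656). Slc27a2, which activates very long chain fatty acids, averaged 36.8 ± 2.53 CPM in double-mutant and 58.0 ± 8.85 CPM in Hnf4a-removed mTEClo (log2 fold change -0.66, SE 0.13, adjusted p = 0.0484). Apolipoprotein genes showed larger differences that missed the threshold. Apoa4 was at 1.95 ± 0.581 CPM in double-mutant and 22.4 ± 1.97 CPM in Hnf4a-removed mTEClo (log2 fold change -3.50, adjusted p = 0.0547), and Apoc3 at 0.660 ± 0.402 against 9.23 ± 1.23 CPM (log2 fold change -3.76, adjusted p = 0.0982), both without overlap.

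Liver lists held fewer calls. Of 32 measured plasma protein genes 1 fell, Serpina1b, and 0 rose, with a median log2 fold change of -0.15. Serpina1b, an alpha-1-antitrypsin gene with near-identical copies, had 5 reads over the 4 double-mutant libraries, against 80 reads over the 3 Hnf4a-removed libraries (log2 fold change -4.39, SE 0.84, adjusted p = 0.0405). The coagulation factor gene F10 averaged 0.785 ± 0.401 CPM in double-mutant and 8.37 ± 2.80 CPM in Hnf4a-removed mTEClo and was not called (log2 fold change -3.39, adjusted p = 0.0558). Of 32 measured xenobiotic genes 1 fell, the carboxylesterase gene Ces2c, and 0 rose, with a median of -0.54. Ces2c averaged 10.3 ± 2.59 CPM in double-mutant and 42.1 ± 21.7 CPM in Hnf4a-removed mTEClo (log2 fold change -2.03, SE 0.39, adjusted p = 0.0405). None of 21 measured hepatocyte metabolism genes was called, with a median of -0.45, and Pck1, the gluconeogenic carboxykinase gene, was at 2.40 ± 3.17 CPM in double-mutant and 10.2 ± 3.30 CPM in Hnf4a-removed mTEClo, without overlap (log2 fold change -2.09, adjusted p = 0.332).

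Intestinal transporters and gut and liver transcription factors were centred near 0. None of 26 measured transporters was called, 14 were negative and 12 positive, and the median log2 fold change was -0.02. The zinc importer gene Slc39a4 was at 16.3 ± 4.91 CPM in double-mutant and 38.0 ± 24.7 CPM in Hnf4a-removed mTEClo, and the neutral amino acid transporter gene Slc6a19 at 6.81 ± 5.10 against 1.55 ± 0.909 CPM. Both had overlapping libraries, with adjusted p of 0.25 and 0.166. None of 27 measured transcription factors was called, and their median was -0.02. Of 22 measured HNF4 partner and coregulator genes 0 were called, with a median of -0.02.

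Other called genes had varied roles. The collagenase gene Mmp13 had 2 reads over the double-mutant libraries, against 158 reads over the Hnf4a-removed libraries, a 114-fold lower share of reads (exact 95% interval 30.9 to 946, counting error only). Tmem37, a membrane protein gene, had 3 reads over the double-mutant libraries against 94 reads over the Hnf4a-removed libraries, a 45-fold lower share (14.9 to 222), and of its Hnf4a-removed libraries replicate 3 held most, at 11.3 CPM beside 0.605 and 2.78 CPM. Gsdmd, which encodes a pore-forming protein of pyroptosis, averaged 42.5 ± 4.36 CPM in double-mutant and 85.5 ± 13.9 CPM in Hnf4a-removed mTEClo, and the zinc exporter gene Slc30a2 24.3 ± 4.44 CPM in double-mutant and 58.9 ± 25.8 CPM in Hnf4a-removed mTEClo. Both fell, by 1.01 and 1.28 on the log2 scale. Scg5, a chaperone gene of secretory granules, was the 1 gene called lower of 20 measured neuroendocrine genes, at 55.7 ± 7.18 CPM in double-mutant and 90.4 ± 15.3 CPM in Hnf4a-removed mTEClo (log2 fold change -0.70, SE 0.13, adjusted p = 0.0391). The remaining genes called lower were Pard3b, Gsap, Mocs1, Cotl1, Prodh, Rhoc, Myo15b, Krt84, Fam20c, H2-Q10, H2-M2, Rasd2, Gucy1b2 and Adra1a, with log2 fold changes of -0.68 (Myo15b) to -2.60 (Adra1a), and 1 further gene model.

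The 6 genes called higher included secretory and trafficking genes and 2 gene models. Scgb1a1, the secretoglobin of airway club cells, was at 181, 209, 197 and 229 CPM in double-mutant libraries, against 53.2, 68.1 and 112 CPM in Hnf4a-removed libraries. It rose by 1.39 on the log2 scale (SE 0.28, adjusted p = 0.0468) and was the 1 gene called among 26 measured goblet and secretory genes, whose median was 0.27 and of which 20 were positive. The airway mucin gene Muc16 was at 36.9 CPM in double-mutant and 16.7 CPM in Hnf4a-removed mTEClo and Tff1, a trefoil factor gene, at 96.7 against 32.8 CPM, both without overlap and with adjusted p of 0.289 and 0.279. The summed level of that list overlapped between the groups, at 3052 to 5029 CPM in double-mutant and 3202 to 4709 CPM in Hnf4a-removed libraries. Snx25, a sorting nexin gene, averaged 22.3 ± 2.83 CPM in double-mutant and 11.4 ± 0.807 CPM in Hnf4a-removed mTEClo, and Amot, which encodes angiomotin, 117 ± 9.27 CPM in double-mutant and 75.7 ± 1.58 CPM in Hnf4a-removed mTEClo. They rose by 0.97 and 0.63 on the log2 scale, and none of the 6 kept its call in all leave-one-out fits.

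**Figure D3:**
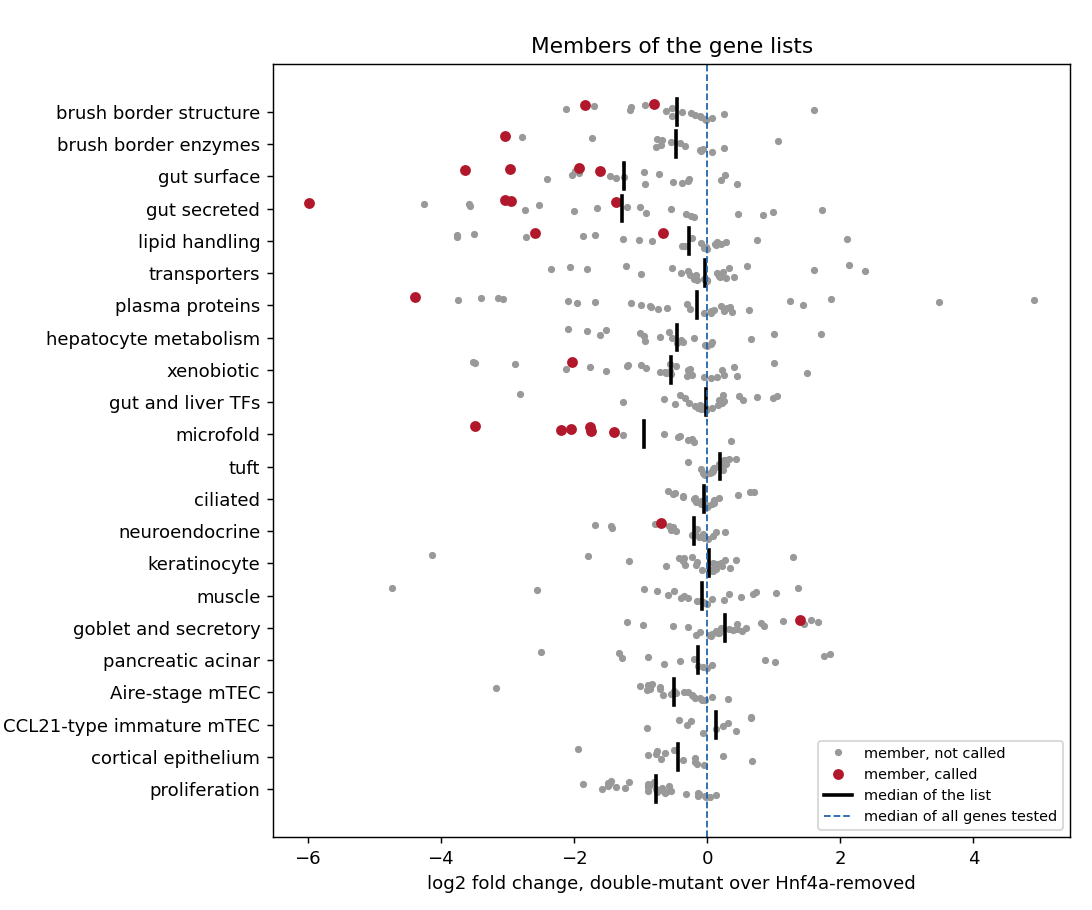
Log2 fold change of double-mutant over Hnf4a-removed mTEClo for each measured member of 22 gene lists, with called members in red, a black bar at the median of each list and a dashed line at the median of all genes tested. The gut surface, gut secreted and microfold lists have medians near or below -1 and 14 of the called genes between them, while the tuft and transporter medians lie near 0.

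Lists of other mTEC types and states held 0 or 1 call each, but some of their sums did not overlap between the groups. Tuft genes, which mark chemosensory mimetic cells, had 0 calls among 26 measured, with 21 positive and a median of 0.19. Their summed level was 26133 to 27384 CPM in double-mutant and 22636 to 24168 CPM in Hnf4a-removed libraries, without overlap. Aire-stage mTEC genes had 0 calls among 23 measured, with 21 negative and a median of -0.49, and sums of 6642 to 8013 CPM in double-mutant and 8670 to 15209 CPM in Hnf4a-removed libraries. Aire itself was at 182, 146, 228 and 213 CPM in double-mutant libraries, against 187, 425 and 461 CPM in Hnf4a-removed libraries (log2 fold change -0.90, SE 0.41, adjusted p = 0.435). Hnf4a-removed replicate 1 lay within the double-mutant range. The MHC class II gene H2-Aa was at 1020 CPM in double-mutant and 1894 CPM in Hnf4a-removed mTEClo, without overlap (log2 fold change -0.89, adjusted p = 0.314).

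Proliferation genes had 0 calls among 30 measured, with 28 negative, a median of -0.76 and sums of 298 to 352 CPM in double-mutant and 415 to 537 CPM in Hnf4a-removed libraries. Cortical epithelium genes had 0 calls among 14, a median of -0.43 and sums of 535 to 633 CPM in double-mutant and 732 to 858 CPM in Hnf4a-removed libraries. Ribosomal protein genes summed to 12607 to 13359 CPM in double-mutant and 14329 to 16434 CPM in Hnf4a-removed libraries, again without overlap. These sums differed along the same split of libraries as the gut and microfold calls, and their part in those calls was not tested. The medians of the ciliated, keratinocyte, muscle and pancreatic acinar lists were -0.05, 0.03, -0.07 and -0.13, with 0 calls. Those of the stress, CCL21 immature mTEC and kidney proximal tubule lists were -0.01, 0.14 and 0.00, also with 0 calls. The thymocyte, B cell, endothelium and erythroid lists had 0 calls, and the thymocyte sum was 59.3 to 66.8 CPM in double-mutant and 39.4 to 74.6 CPM in Hnf4a-removed libraries. The B cell and endothelium sums overlapped too. The erythroid sum did not, at 10.8 to 14.7 CPM in double-mutant and 15.1 to 26.9 CPM in Hnf4a-removed libraries. Of 12 measured B cell genes, 2 (Ighm and Ighd) lay above in every double-mutant library, beside 5.43% of all genes. In 1, Cr2, every double-mutant library lay below, beside 5.66%. The fibroblast list had 0 calls among 13 and sums of 134 to 198 CPM in double-mutant and 257 to 300 CPM in Hnf4a-removed libraries.

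The lower genes lay almost entirely in the wild-type entero-hepato programme. Genes called higher in the wild-type gate than outside it with a log2 fold change over 1 numbered 2147, of which 2020 were tested in mTEClo (10.8% of the genes tested there). Of the 49 genes called lower in double-mutant mTEClo, 45 (91.8%) belonged to this signature, which is 2.23% of the 2020. Of the 2186 tested genes with the opposite gate difference (11.6%), 0 were called lower. The 4 lower genes outside the signature were Prodh, Rasd2, Adra1a and Slc27a2. The signature was defined in libraries with no part in the mutant comparison. In double-mutant against Hnf4a-removed mTEClo 66.0% of its genes were negative, beside 49.4% of all genes, and its median log2 fold change was -0.17. Among the 766 genes with a gate log2 fold change over 2, 76.0% were negative and the median was -0.42. The signature genes that were not called had a median of -0.15.

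**Figure D4:**
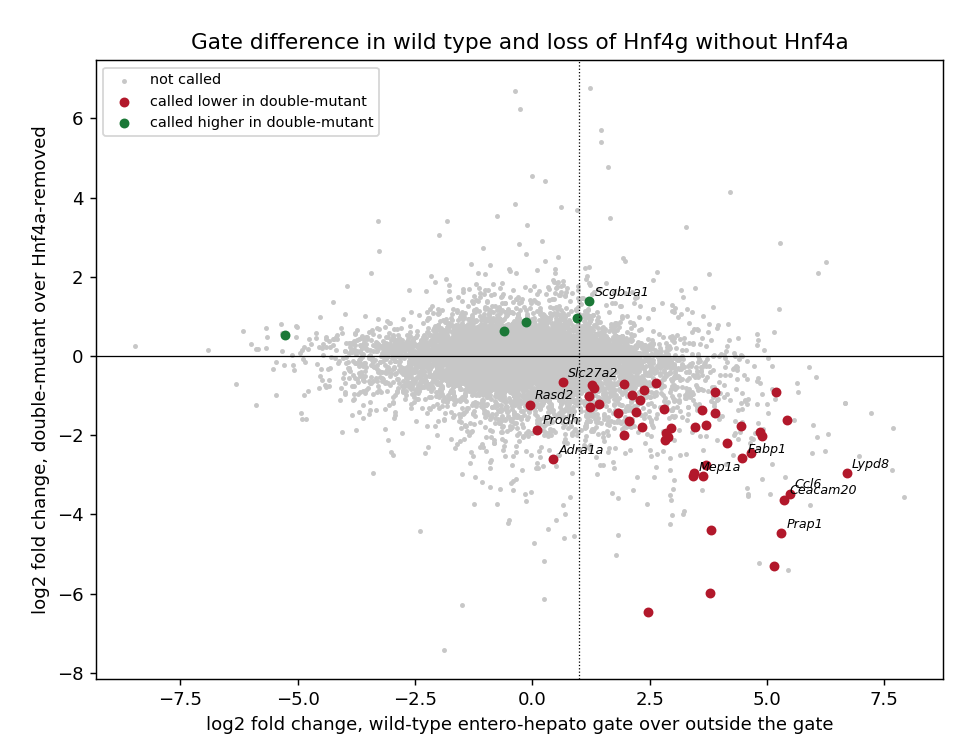
Log2 fold change of double-mutant over Hnf4a-removed mTEClo (vertical axis) against that of the wild-type entero-hepato gate over the mTECs outside it (horizontal axis), each point a gene measured in both. The dotted line marks a gate log2 fold change of 1; 45 of the 49 genes called lower lie to its right, and most other genes there lie near 0 on the vertical axis.

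The same loss was measured in mice that kept a functional Hnf4a allele, in Hnf4g-removed against control mTEClo. These libraries are distinct from those of the first comparison and share with it only the estimate of spread. In that comparison edgeR called 18 genes lower (0.0959%) and 0 higher (0.00%). Of the 49 genes lower without Hnf4a, 48 had a negative log2 fold change there too, beside 49.6% of all genes, with a median of -1.33, and 11 of the 49 were called. The 1 gene of the 49 without a negative log2 fold change there was Cotl1, an actin-binding protein gene, at 0.16. Over all genes, every Hnf4g-removed library lay below every control library in 4.20%. Fabp1 was at 3.00 CPM in Hnf4g-removed and 28.4 CPM in control mTEClo (log2 fold change -3.24, adjusted p = 0.0050), Ccl6 at 10.2 against 85.1 CPM (-3.10, adjusted p = 0.016), and Ccl9 at 44.7 against 151 CPM (-1.76, adjusted p = 0.0080). Ccl9, at 44.6 CPM in double-mutant and 151 CPM in Hnf4a-removed mTEClo, had the same log2 fold change in both backgrounds.

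No gene was called for a difference of the effect between the Hnf4a backgrounds by edgeR, where the smallest adjusted p was 0.106. At 0.05 unadjusted 1473 genes passed, beside 939 from uniform p-values. By DESeq2 there were 100 genes for this difference and by limma voom 0. Without double-mutant replicate 2 edgeR called 8, without Hnf4g-removed replicate 3 it called 2, and without Hnf4a-removed replicate 1 it called 1. Over the 49 lower genes, chosen on the first of the compared effects, the median difference was -0.43. Fgr fell by 2.77 in double-mutant against Hnf4a-removed mTEClo and was at 7.17 CPM in Hnf4g-removed and 16.1 CPM in control mTEClo (log2 fold change -1.17, adjusted p = 0.218). The difference of its effects was -1.60 (SE 0.41, adjusted p = 0.312). For Ceacam20 that difference was -1.80 (adjusted p = 0.564), for Lypd8 -1.07 (adjusted p = 0.726) and for Mep1a -0.68 (adjusted p = 0.856). These misses do not show that the effects were alike.

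**Figure D5:**
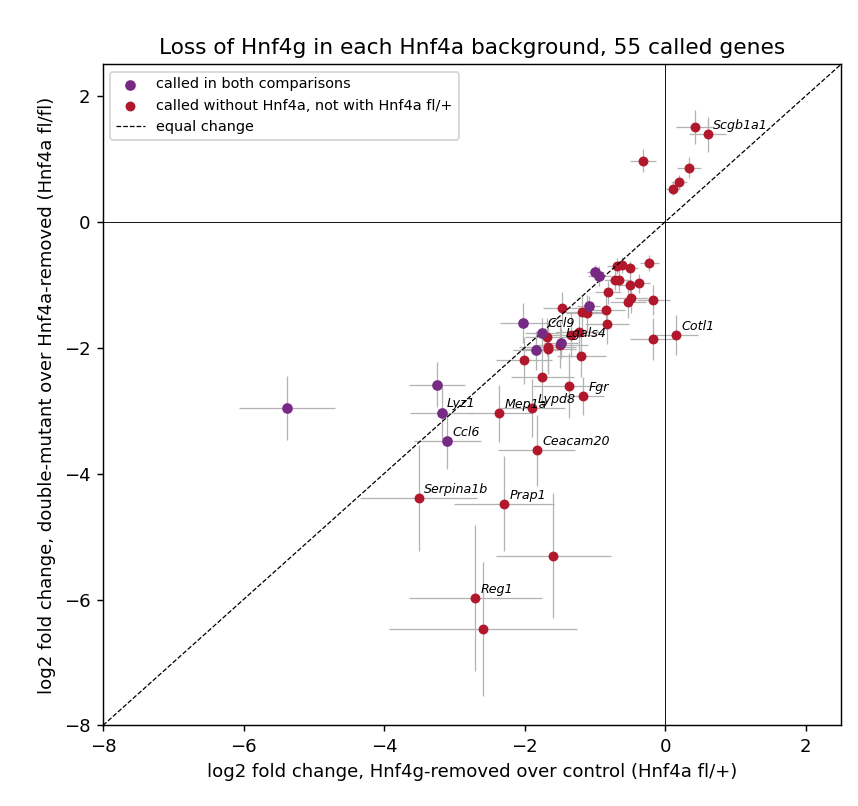
Log2 fold change on loss of Hnf4g for the 55 genes called in double-mutant against Hnf4a-removed mTEClo, without Hnf4a (vertical axis) and with a functional Hnf4a allele (Hnf4g-removed over control, horizontal axis), with bars of 1 SE. Points under 0 on both axes are the 48 genes lower in both comparisons, the 11 purple points are called in both, and the dashed line marks equal change.

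Levels in the 4 mTEClo genotypes placed the Hnf4a-removed cells near the controls for Mep1a, Serpinb1a and Reg3g. Mep1a averaged 7.84 CPM in double-mutant, 64.3 CPM in Hnf4a-removed, 12.5 CPM in Hnf4g-removed and 64.6 CPM in control mTEClo. Serpinb1a averaged 228 CPM in double-mutant, 938 CPM in Hnf4a-removed, 255 CPM in Hnf4g-removed and 916 CPM in control mTEClo. Reg3g averaged 1646 CPM in double-mutant, 4252 CPM in Hnf4a-removed, 1494 CPM in Hnf4g-removed and 4123 CPM in control mTEClo. Other genes stood in another order. Mmp13 averaged 0.0737 CPM in double-mutant, 7.97 CPM in Hnf4a-removed, 0.0590 CPM in Hnf4g-removed and 0.425 CPM in control mTEClo, so its Hnf4a-removed level was the high one. Cotl1 averaged 5.8 CPM in double-mutant, 20.2 CPM in Hnf4a-removed, 9.95 CPM in Hnf4g-removed and 8.93 CPM in control mTEClo. Scgb1a1 averaged 204 CPM in double-mutant, 77.8 CPM in Hnf4a-removed, 221 CPM in Hnf4g-removed and 145 CPM in control mTEClo, so its Hnf4a-removed level was the low one.

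In mTEChi, the subset with high MHC class II, double-mutant cells were compared with controls, so both genes differed there. Of 18413 genes tested, 110 were called lower (0.597%) and 7 higher (0.0380%). Of the 49 genes lower in mTEClo, 46 were negative in mTEChi, with a median log2 fold change of -1.0, and 23 were called lower. Among all genes tested in mTEClo that had a value in mTEChi, 47.7% were negative and the median was 0.02. Muc13, Lgals4 and Fabp1 had log2 fold changes of -2.33, -2.37 and -1.94 in mTEChi. Fgr and Serpinb6a, among the smallest p in mTEClo, had -0.49 and -0.56 in mTEChi, with adjusted p of 0.476 and 0.187.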

How the data were processed

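The authors deposited raw counts of reads per gene. Reads were aligned with STAR 2.7.3a to mm10 and counted with featureCounts, per the submitters' processing notes; annotation and counting options were not given in the sources used here. The libraries carried no molecular identifiers, and the kit does not mark strand, per the labels' protocols. No count column lacked a sample (0). Positions are from GENCODE M21 (GRCm38), matched by symbol for 52936 of 55011 genes.

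Counts were scaled by TMM and tested with edgeR 4.0.16 (quasi-likelihood, R 4.3.3) in a fit of the 14 mTEClo libraries, after filterByExpr with a minimum count of 10 and a minimum total of 15. The mTEChi (8 libraries) and gate (6 libraries) comparisons were fitted separately. Adjustment was by Benjamini-Hochberg across the genes tested, with a threshold of 0.05. Intervals cover counting error only. DESeq2 1.42.0, limma 3.58.1 (voom), other scalings, no filter, a replicate block, the 7 libraries alone and leaving out each library were alternatives. The edgeR step was tested on simulated data. Counts of replicate pairs differed by more than sampling noise (chi-square per degree of freedom 7.79 to 15.4 over 9 pairs).

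Named genes were the targeted genes, Aire and the 3 markers, the 12 largest called changes in each direction at 5 CPM or more (with the smallest p filling empty places), and the 3 genes of smallest p in each of 31 lists. Other genes were named after their values were seen. Gm and Rik gene models were counted and not named, except Gm10800, given for its high level, and some called genes are counted but not reported here. The members and lists were chosen with earlier results of these data known.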

Additional observations from a re-analysis of the deposited data

Results flagged for a closer look

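Of 123 sets of 4 double-mutant mTEClo values checked, 12 had 1 library far from the other 3, and chance gives about 1 in 20. The double-mutant library apart was replicate 4 for H2-M2, at 197 CPM beside 117 to 125 CPM in the others, for Isl1, at 27.6 CPM beside 10.5 to 11.6 CPM, and for Pck1, at 7.13 CPM beside 0.548 to 1.19 CPM. It was replicate 1 for Gm10800, at 10578 CPM beside 7482 to 7618 CPM, and for Cyp3a11, at 0.274 CPM beside 0.132 to 0.149 CPM. For Cyp3a11 this is 2 reads beside 1 read in each of the others. It was replicate 2 for Slc27a2, at 40.6 CPM beside 35.3 to 35.8 CPM, for Batf3, at 1.77 CPM beside 0.822 to 0.926 CPM, and for the summed pancreatic acinar genes, at 1730 CPM beside 2168 to 2198 CPM. Replicate 2 also held the 2 reads of Mmp13, at 0.295 CPM beside 0 in the others, and had 0 reads of Tmem37 beside 0.132 to 0.149 CPM, which is 1 read in each of the others. It was replicate 3 for Ceacam20, at 0.397 CPM beside 1.18 to 1.23 CPM, and for the summed proliferation genes, at 298 CPM beside 346 to 352 CPM. In H2-M2, Slc27a2, Mmp13, Tmem37 and Ceacam20 the library apart still lay on the same side of all Hnf4a-removed libraries. None of the genes checked moved in opposite directions in every library of the 2 Hnf4a backgrounds.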

How the results depend on the processing

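The count of genes lower in double-mutant mTEClo was 50 to 56 with RLE or upper-quartile scaling or the 7 libraries alone, beside 49, and the count of genes higher was 5, beside 6. Both scalings called all 49 lower genes again, but the fit on the 7 libraries alone called 33 of the 49. Reg3g, Muc13, Trim31 and Ddc were among those it did not call. Without the filter on low counts 539 genes were lower and 194 higher, and 331 were called for the difference between Hnf4a backgrounds, beside 0. DESeq2 gave 200 lower, 78 higher and 100 for that difference, and limma voom 26 lower. The share of calls that were higher was 26.5% without the filter and 28.1% by DESeq2, beside 10.9%. With the replicate block 93 genes were lower and 11 higher, and 47 of the 55 calls were shared. Deviations of same-numbered libraries correlated at 0.051, -0.0098 and -0.0086, which does not show that the numbers pair the libraries. On the first principal component, however, replicate 1 had the lowest score in every mTEClo genotype. Its scores were -6.07 in control, -63.3 in Hnf4g-removed, -11.7 in Hnf4a-removed and -43.2 in double-mutant mTEClo. Whether same-numbered libraries share a batch was not tested. Leaving out each library in turn gave 7 to 51 lower, 0 to 5 higher and 0 to 8 called for the difference. The median log2 fold change of the gate signature was -0.22 to -0.11 leaving out each library, beside -0.17, and -0.42 for the signature over a gate log2 fold change of 2. Hnf4a, not called, had log2 fold changes of -0.29 to 0.18 leaving out each library, beside -0.11, and was above 0 without double-mutant replicate 3 (0.02) and without Hnf4a-removed replicate 2 (0.18). The causes of these shifts were not tested. Depth limits genes of a few reads, such as Mmp13, Tmem37, Hnf4a and Hnf4g.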
